A study of Mus musculus with 8 samples.

Results

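The Zfp genes are mouse genes named zinc finger protein. They were taken here as every entry of the deposited results table whose symbol is Zfp followed by a digit. There were 254 such entries with 252 distinct symbols, out of 10601 named entries in all, and each was joined by transcript identifier to its normalized counts in 8 mice. Zfp1 and Zfp869 each had 2 entries, at the same locus and with almost the same values, so counts below are of entries. Of the 254 entries, 252 passed 10 RPM (reads per 1000000, taken against the column total) in 1 mouse or more and were tested. The other two, Zfp51 and Zfp566, did not reach it in any mouse.

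The mice were C57BL/6. The 4 bigenic mice carried Camk2a-tTa, a tetracycline transactivator driven by a promoter of forebrain excitatory neurons, and deltaNLS-hTDP-43, a human TDP-43 that lacks a working nuclear localization signal and accumulates in the cytoplasm. The 4 nontransgenic mice carried neither transgene, so effects of the transactivator and of the human protein cannot be told apart. Doxycycline, which holds the transgene silent, was withdrawn at 28 days of age in both groups, and the right cortex was taken 10 days later, with 3 males in each group. Poly(A)+ RNA was sequenced as single reads of 50 bases. In these bulk samples, fewer cells of a type and less RNA per cell cannot be told apart.

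Most proteins of this class carry C2H2 zinc fingers, short modules in which a pair of cysteines and a pair of histidines hold a zinc ion so that the module can read a few bases of DNA. A large subfamily also carries a KRAB domain, which recruits the corepressor Trim28 (KAP1) and, through it, the histone methyltransferase Setdb1, and many of its members silence transposable elements. KRAB genes have multiplied by local duplication, so they lie in tandem clusters of related sequences. A Zfp symbol does not mark 1 function, since it also covers RNA-binding proteins with other kinds of finger, such as Zfp36l1 and Zfp36l2.

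The coding unit of a finger is shown for the risers Zfp180, Zfp938, Zfp551 and Zfp866, because they changed most and the unit is what the class shares. Each is 84 bases of the coding strand, read 5′ to 3′ from the mm9 genome, with the codons of the paired cysteines and histidines in capitals. They lie at chr7:24890134-24890217 on the plus strand, chr10:81688558-81688641 on the minus strand, chr7:13001648-13001731 on the minus strand and chr8:72290295-72290378 on the minus strand.
Zfp180: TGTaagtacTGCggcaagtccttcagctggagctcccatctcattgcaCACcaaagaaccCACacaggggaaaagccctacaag
Zfp938: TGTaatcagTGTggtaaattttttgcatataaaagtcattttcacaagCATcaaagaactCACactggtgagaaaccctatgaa
Zfp551: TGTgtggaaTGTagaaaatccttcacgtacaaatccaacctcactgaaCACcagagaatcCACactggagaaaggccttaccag
Zfp866: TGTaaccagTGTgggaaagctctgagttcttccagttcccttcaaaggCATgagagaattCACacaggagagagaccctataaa

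Only units that match a strict pattern of a finger and the linker after it were compared. There were 10 in Zfp180, 7 in Zfp938, 8 in Zfp551 and 8 in Zfp866. Over all of these units, not only those printed, the most alike pair shared 69 of 84 bases (Zfp938 and Zfp866). The other pairs of genes shared at most 56 to 62. The annotated proteins of the tested entries held a median of 10 fingers and at most 36, and a KRAB pattern was found in 123 of the 252.

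Zfp genes were more often higher than lower in bigenic cortex. By limma with Benjamini-Hochberg adjustment over all 10588 genes tested and a threshold of 0.05, 93 of 252 entries were called higher and 13 lower. That is 36.9% higher and 5.16% lower. Over all genes tested, 20.5% were called higher, 15.4% lower and 35.9% in either direction, against 42.1% of the Zfp entries in either direction. Zfp entries had a median log2 fold change of 0.23 where all genes had one of 0.03, and their interquartile range was -0.01 to 0.44. The fold change was above 0 in 186 entries.

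The changes were mostly small. Of the 93 entries called higher, 39 were at least 1.5-fold higher, which is 15.5% of the entries tested against 7.07% of all genes, and 8 were at least doubled. Of the 13 called lower, 5 were at least 1.5-fold lower. The counts of the 2 groups of mice did not overlap in 113 entries, 97 higher and 16 lower in the bigenic mice, or 44.8% against 39.0% of all genes tested. The extremes ran from a log2 fold change of -1.68 for Zfp365 to 1.99 for Zfp180.

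The filter bears on these counts, because a gene that passes it only through the group where it is high had to differ. It was passed in every mouse by 201 entries, in bigenic mice only by 17, in nontransgenic mice only by 5, and in some mice of both groups by 29. Of the 17, 12 were called higher, and of the 5, 3 were called lower. Among the 201 that passed in every mouse, 78 were called higher and 9 lower and the median log2 fold change was 0.23. When the test was limited to genes past the filter in every mouse, 82 of the 201 were called higher and 21.9% of all genes so tested were.

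**Figure D1:**
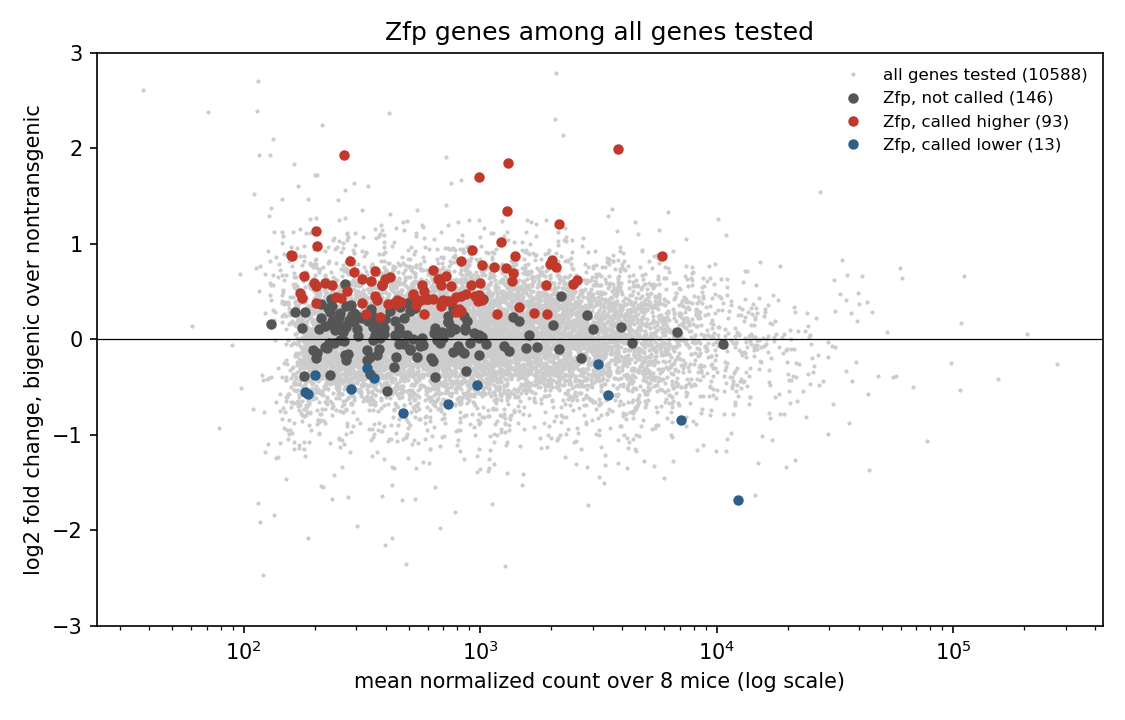
Log2 fold change of bigenic over nontransgenic mice against the mean normalized count over 8 mice (log scale). Grey dots are the 10588 genes tested (6 lie outside the plotted range), and larger points are the 252 Zfp entries, of which 93 were called higher (red) and 13 lower (blue), the calls spreading over the whole range of levels.

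The shift was present in each bigenic mouse. The median log2 difference of the Zfp entries from the nontransgenic mean was 0.19, 0.19, 0.26 and 0.29 in the 4 bigenic mice, in the order of the table's columns, which is kept throughout. In the nontransgenic mice, which make up that mean and so lie near 0 in part by construction, it lay between -0.01 and 0.00. All 4 bigenic values were above all 4 nontransgenic values, while the same median over all genes was at most 0.05 in any mouse. The second bigenic mouse stood apart from the others on the first principal components and had the fewest reads on genes, at 10.6 M against 15.2 M to 31.9 M (M, 1000000 reads). Its deviation from the mean of the other bigenic mice followed GC content. Pearson r was 0.57 across 250 Zfp entries and 0.37 across 10297 genes, which share the mouse's library. In the other bigenic mice r was negative, but each was compared with a mean that includes the second mouse, so these values are not independent of it. In the nontransgenic mice, compared in the same way, r ran from -0.33 to 0.27 across the Zfp entries. Without that mouse, 121 Zfp entries were called higher and 16 lower, and all 106 calls of the full set were kept. With the trend on GC content and length removed from each mouse, 109 were called higher and 14 lower.

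**Figure D2:**
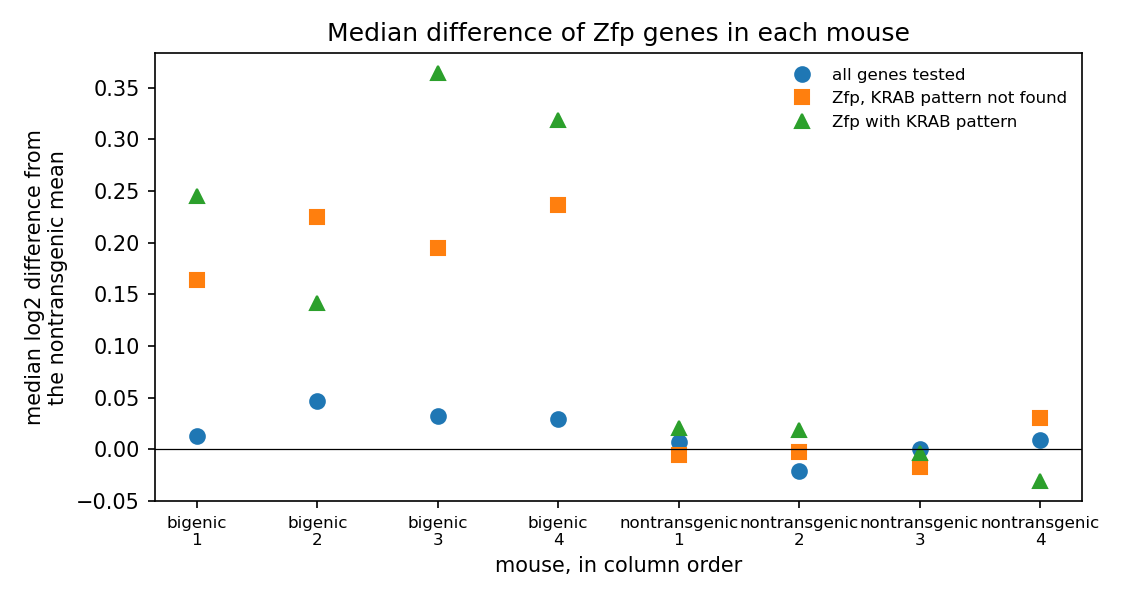
Median log2 difference of each mouse from the nontransgenic mean, for all genes tested (circles), Zfp entries with no KRAB pattern found (squares) and Zfp entries with one (triangles). In each bigenic mouse both Zfp medians, 0.14 to 0.36, lie above the median of all genes, which is at most 0.05.

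Other zinc finger families were compared by their symbols. Of 15 Zscan and Zkscan entries, which pair a SCAN domain with C2H2 fingers, 5 were called higher and 2 lower, with a median log2 fold change of 0.35. Of 29 Zbtb entries, whose fingers are joined to a BTB domain, 6 were called higher and 0 lower (0 by limma also at an unadjusted p below 0.05), with a median of 0.12. Of 10 Klf entries, the Krüppel-like factors, 1 was called higher and 0 lower (1 lower by limma at an unadjusted p below 0.05), with a median of 0.09. Shares called higher were 33.3% (Zscan and Zkscan), 20.7% (Zbtb) and 10.0% (Klf), beside 20.5% of all genes tested. Shares called lower were 13.3%, 0% and 0% in that order, beside 15.4%. Differences between these families and the Zfp entries were not tested. The families hold few genes.

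**Figure D3:**
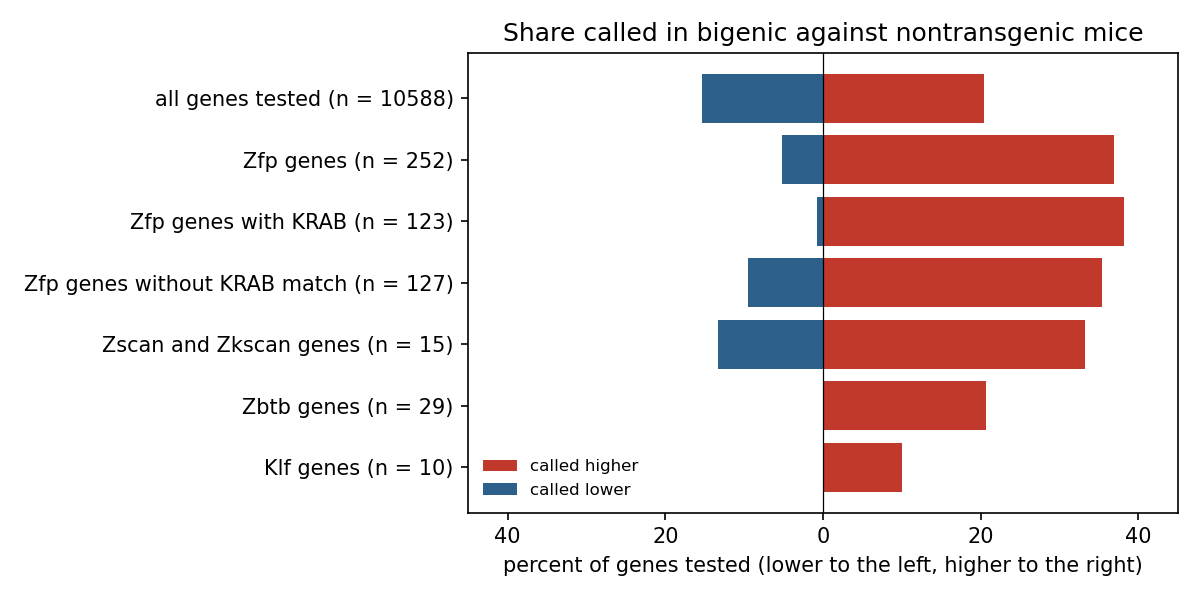
Percent of the genes tested in each set that were called higher (red, right) or lower (blue, left) in bigenic mice, with the number tested in brackets. The share called higher is 36.9% for the Zfp entries and 20.5% for all genes, and the share called lower is 0.813% for Zfp entries with a KRAB pattern.

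Zfp180 had the largest rise. It has 12 fingers and lies on the plus strand at chr7:24866943-24892717. Its normalized counts were 5953, 5654, 6491 and 6272 in bigenic and 1658, 1546, 1604 and 1334 in nontransgenic mice. The groups were far apart, with means of 6093 ± 366 and 1536 ± 142 (SD, n = 4 each). The log2 fold change was 1.99 ± 0.09 (SE) with a limma adjusted p of 1.64e-06. Over all 8 mice its mean was 981 normalized counts per kb of exon, among the highest of the Zfp genes. That mean includes the high bigenic counts, so the rank is not separate from the rise.

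Zfp551, a KRAB gene on the same chromosome at chr7:13000502-13008100, was much less abundant. Its counts were 437, 397, 417 and 435 in bigenic and 105, 96, 110 and 130 in nontransgenic mice. No nontransgenic mouse reached 10 RPM, so this gene entered the test through the bigenic mice alone. Its log2 fold change was 1.93 ± 0.12 (limma adjusted p = 1.28e-05).

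Zfp938 and Zfp873 are neighbours, at chr10:81687595-81704025 and chr10:81521162-81524074. Zfp938 counts were 2088, 1863, 2221 and 2042 in bigenic and 560, 580, 575 and 557 in nontransgenic mice. The nontransgenic counts lay within a narrow band, and the log2 fold change was 1.85 ± 0.08 with a limma adjusted p of 1.1e-06, the smallest of the Zfp entries. Zfp873 counts were 311, 316, 263 and 227 against 105, 124, 140 and 134, a log2 difference of 1.14 ± 0.15 (limma adjusted p = 0.000488), and it too passed the filter in bigenic mice only.

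Zfp280b, which carries 5 fingers and lies on the same chromosome at chr10:75495357-75505979, varied more among bigenic mice than the other leading risers. Its counts were 1422, 1038, 1728 and 1886 against 448, 453, 435 and 487. The lowest bigenic value, that of the second mouse, was still above every nontransgenic value. The log2 fold change was 1.70 ± 0.16 (limma adjusted p = 8.12e-05). Only 86.9% of the 50-base windows in its exons occur once in the genome, and the authors counted uniquely mapping reads.

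Zfp866, a KRAB gene at chr8:72285225-72315077, gave counts of 2025, 1756, 1890 and 1802 in bigenic and 756, 792, 749 and 650 in nontransgenic mice, a log2 difference of 1.34 ± 0.09 (limma adjusted p = 1.63e-05). Zfp597, a KRAB gene at chr16:3861528-3884561, gave 1615, 1654, 1632 and 1686 against 801, 831, 761 and 860, a log2 difference of 1.02 ± 0.07 (limma adjusted p = 1.98e-05). In both genes the groups were well separated. Annotated exons of Zfp866 overlap those of Atp13a1, and exons of Zfp597 those of Nat15. The sources do not state whether the counting used strand, so reads in the shared stretches could belong to either gene.

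**Figure D4:**
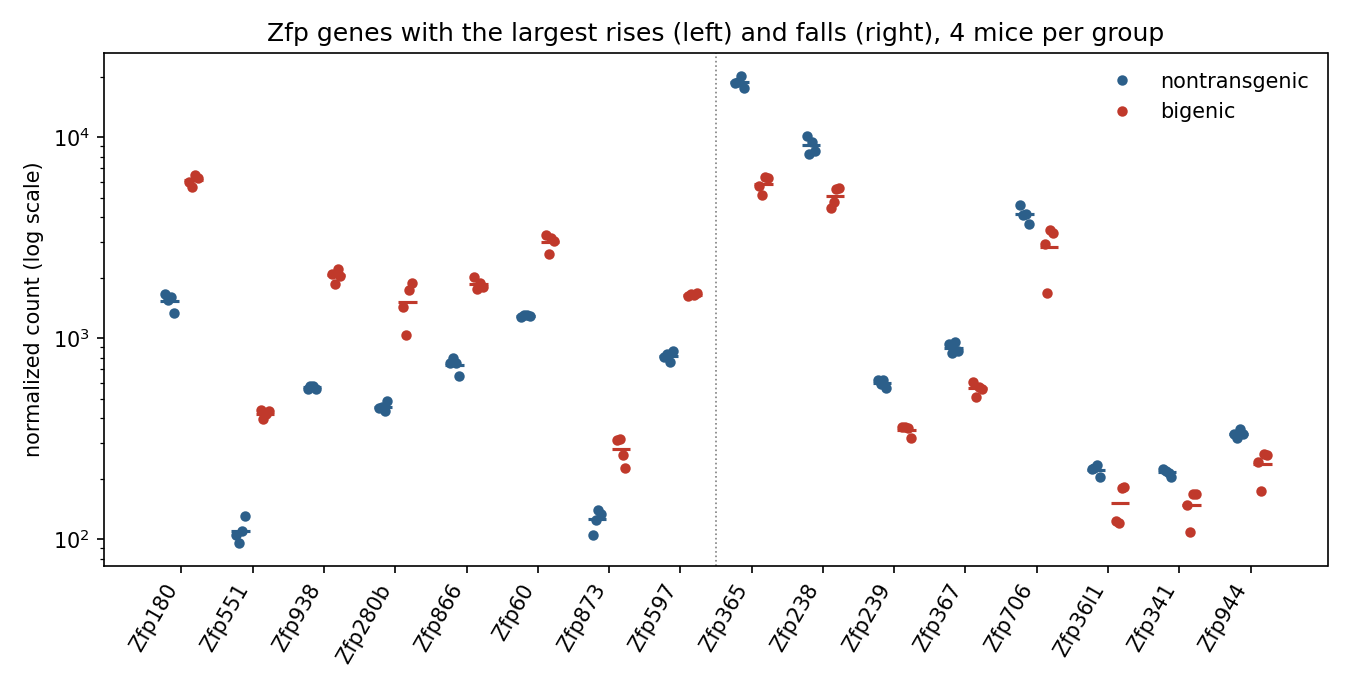
Normalized counts (log scale) of the 8 Zfp genes with the largest rises and the 8 with the largest falls, one point per mouse and a bar at the group mean. Bigenic mice are red and nontransgenic mice blue, genes were chosen among those whose groups do not overlap, and levels run from Zfp551 at about 100 counts to Zfp365 at 17630 or more in the nontransgenic mice.

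The neighbours Zfp60, Zfp59 and Zfp780b, KRAB genes within 243 kb of chr7:28516408-28759804, were all called higher. Zfp60 counts were 3246, 2614, 3136 and 3052 against 1278, 1307, 1307 and 1285 (log2 fold change 1.21 ± 0.08, limma adjusted p = 1.98e-05). Zfp59 counts were 270, 273, 270 and 275 against 136, 142, 142 and 131 (0.98 ± 0.10, limma adjusted p = 0.000124). Zfp780b counts were 620, 503, 632 and 666 against 430, 436, 412 and 454 (0.48 ± 0.10, limma adjusted p = 0.0053). The groups did not overlap in any of the 3, but Zfp59 passed the filter in bigenic mice only and so entered the test through the group where it is high.

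These neighbours are shown together because their finger units are alike and parts of their exons are not unique. Only 43.6% of the 50-base windows of Zfp59, 53.4% of those of Zfp780b and 89.4% of those of Zfp60 occur once in the mm9 genome. The same strict pattern found 3 units in Zfp59, 4 in Zfp60 and 4 in Zfp780b, fewer than their fingers. Among those that occur once in their gene, the most alike units lie at chr7:28638663-28638746 (plus strand), chr7:28533450-28533533 (plus strand) and chr7:28749548-28749631 (minus strand). The cysteine and histidine codons are again in capitals.
Zfp59: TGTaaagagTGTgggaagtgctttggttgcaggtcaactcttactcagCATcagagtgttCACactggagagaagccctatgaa
Zfp60: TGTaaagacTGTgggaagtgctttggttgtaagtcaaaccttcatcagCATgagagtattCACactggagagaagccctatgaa
Zfp780b: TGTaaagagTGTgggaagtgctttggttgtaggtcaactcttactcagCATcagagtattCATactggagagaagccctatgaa
The units of Zfp59 and Zfp780b shared 81 of 84 bases, those of Zfp60 and Zfp780b 76, and those of Zfp59 and Zfp60 75. The printed units differ from each other in every 50-base window that lies within them. A read from a window that occurs more than once in the genome is not counted, so counts of Zfp59 and Zfp780b cover only part of their exons.

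Zfp365, also called DBZ, a protein that binds the neuronal scaffold Disc1, had the largest fall and was the most abundant Zfp gene. It lies at chr10:67348851-67375410. Its counts were 5692, 5135, 6373 and 6273 in bigenic and 18713, 18752, 20094 and 17630 in nontransgenic mice. Means were 5868 ± 574 and 18797 ± 1009 (SD, n = 4 each), so the bigenic level was 0.312 of the nontransgenic one, and the log2 fold change was -1.68 ± 0.09 (limma adjusted p = 5.57e-06). No canonical C2H2 finger was found in its annotated protein.

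Zfp238, or RP58, is a transcriptional repressor needed for the development of cortical neurons. Its counts were 4434, 4786, 5517 and 5600 in bigenic and 10178, 8253, 9479 and 8552 in nontransgenic mice, and the groups were apart by more than the range within either. The log2 fold change was -0.84 ± 0.10 (limma adjusted p = 0.000298). Zfp239 counts were 361, 360, 357 and 318 against 619, 588, 620 and 566 (-0.78 ± 0.08, limma adjusted p = 0.000142). Zfp367 counts were 605, 509, 574 and 561 against 933, 844, 954 and 861 (-0.68 ± 0.08, limma adjusted p = 0.000337).

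The remaining large falls rested on thinner evidence. Zfp706 counts were 2935, 1679, 3438 and 3332 against 4588, 4095, 4142 and 3701, with the second bigenic mouse far below the others, and the fall had a log2 difference of -0.59 ± 0.20 (limma adjusted p = 0.0455). Zfp341, a transcription factor that drives Stat3 expression, had counts of 148, 108, 168 and 168 against 222, 219, 213 and 204 (-0.55 ± 0.16, limma adjusted p = 0.0209), and passed the filter in nontransgenic mice only. Zfp944 counts were 243, 174, 264 and 261 against 335, 317, 351 and 334 (-0.52 ± 0.14, limma adjusted p = 0.0163), and it was the only gene with a KRAB pattern called lower. With single mice left out in turn, Zfp706 stayed past the threshold in 3 of 8 fits, Zfp341 in 5 and Zfp944 in 7, whereas Zfp365, Zfp238, Zfp239 and Zfp367 stayed in all 8.

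By mean count the 5 most abundant entries were Zfp365, Zfp106, Zfp238, Zfp445 and Zfp871, and they did not share a direction. Zfp871, a KRAB gene on chromosome 17, rose from 4126, 4076, 3757 and 4625 in nontransgenic to 7800, 7003, 7852 and 7686 in bigenic mice (log2 fold change 0.87 ± 0.08, limma adjusted p = 6.81e-05). Zfp106, an RNA-binding protein whose loss causes motor neuron disease in mice, gave 10272, 10907, 10499 and 10319 against 11131, 11226, 10265 and 10784. Its log2 fold change was -0.05 ± 0.06 (limma adjusted p = 0.585) and the groups overlapped.

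Levels of Zfp genes were mostly low. Per kb of exon their median was 123 normalized counts against 221 for all genes tested, with a range from 22.6 for Zfp111 to 2369 for Zfp365. Split into 4 equal groups of 63 by mean count, from lowest to highest, 18, 15, 28 and 32 entries were called higher and 4, 3, 1 and 5 lower. Median log2 fold changes of these groups were 0.23, 0.19, 0.27 and 0.28, while the median standard error narrowed from 0.15 to 0.09. Across the 252 entries the log2 fold change had a Pearson r of 0.02 with the log2 mean count. Genes other than Zfp entries whose mean count lay in the interquartile range of the Zfp entries were called higher in 18.7% of 3615 cases, with a median of 0.03.

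GC content and finger number showed no steep relation with the change. Zfp exons had a median GC content of 45.6% against 49.6% for all genes. Across 250 entries the log2 fold change had an r of -0.01 with GC content and 0.16 with the number of fingers. Of 7 entries with no canonical finger found, 1 was called higher and 3 lower. Of 37 with 1 to 4 fingers, 9 were called higher and 4 lower. Of 75 with 5 to 9, 28 were higher and 2 lower, of 87 with 10 to 14, 38 higher and 4 lower, and of 44 with 15 or more, 16 higher and 0 lower (1 lower by limma at an unadjusted p below 0.05). The medians were 0.07, 0.12, 0.27, 0.29 and 0.22 in that order.

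KRAB genes and the other Zfp genes were called higher in similar shares. Of 123 entries with a KRAB pattern, 47 (38.2%) were called higher and 1 lower, with a median log2 fold change of 0.28. Of 127 entries in which none was found, 45 (35.4%) were called higher and 12 lower, with a median of 0.19. An annotated protein that lacks its first part is counted as having no KRAB pattern, so 123 is a lower bound. The difference between the sets was not tested. Its order was not the same in every bigenic mouse, since in the second one the median log2 difference from the nontransgenic mean was 0.14 with a KRAB pattern and 0.22 without, while in the other bigenic mice the KRAB median was the higher.

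Of 10 listed KRAB genes known for silencing, 3 could be tested, and by limma 0 passed the threshold, with 0 at an unadjusted p below 0.05. Zfp445 and Zfp57 maintain imprints at imprinted genes, and Zfp809 silences retroviruses through their primer binding site. Zfp445 counts were 6806, 6411, 7568 and 7160 against 6453, 6497, 6513 and 6994, Zfp809 counts 365, 227, 358 and 340 against 324, 382, 354 and 318, and Zfp57 counts 141, 292, 173 and 173 against 162, 200, 190 and 298. The groups overlapped in each. The log2 fold changes were 0.08 ± 0.07, -0.12 ± 0.15 and -0.14 ± 0.25, with limma adjusted p of 0.436, 0.582 and 0.675. Zfp57 and Zfp809 changed sign when 1 mouse was left out, and Zfp809 also with the trend on GC content and length removed.

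Corepressors that KRAB proteins recruit were called about as often as genes in general. Of 24 entries tested on a list of 27 symbols, 5 (20.8%) were called higher and 4 (16.7%) lower, beside 20.5% and 15.4% of all genes, with a median log2 fold change of 0.08. Trim28 counts were 1368, 1830, 1596 and 1580 against 1534, 1607, 1565 and 1786, and Setdb1 counts were 1394, 1704, 1347 and 1325 against 1234, 1269, 1294 and 1566. Neither passed the test, with limma adjusted p of 0.82 and 0.476, and both had overlapping groups. The sign of the Trim28 difference depended on which mice were included. Atf7ip, the partner that stabilizes Setdb1, was higher at 2444, 2356, 2201 and 2365 against 1706, 1572, 1526 and 1675 (log2 fold change 0.53 ± 0.07, limma adjusted p = 0.000556). The histone deacetylase Hdac2 was lower (-0.30 ± 0.07, limma adjusted p = 0.0105), as was Atrx, a remodeller that places histone H3.3 in heterochromatin (-0.40 ± 0.10, limma adjusted p = 0.0125). The calls of Hdac2 and Atrx were lost when the trend on GC content and length was removed.

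Among Zfp proteins linked to RNA few could be tested. Of 7 tested from a list of 11, 2 (28.6%) were called higher and 2 (28.6%) lower, beside 20.5% and 15.4% of all genes, with a median log2 fold change of -0.05. Zfp36l1 and Zfp36l2 bind AU-rich elements and promote mRNA decay. Zfp36l1 counts were 123, 120, 179 and 182 against 224, 226, 233 and 204 (log2 fold change -0.58 ± 0.17, limma adjusted p = 0.0224). Zfp36l2 counts were 276, 316, 302 and 331 against 432, 402, 418 and 368 (-0.40 ± 0.10, limma adjusted p = 0.00957). In both, every bigenic mouse lay below every nontransgenic mouse, although Zfp36l1 passed the filter only in nontransgenic mice. With single mice left out in turn, Zfp36l1 stayed past the threshold in 4 of 8 fits and Zfp36l2 in all 8. The double-stranded RNA-binding protein Zfp385a was higher, at 609, 697, 703 and 749 against 507, 509, 505 and 531 (0.42 ± 0.08, limma adjusted p = 0.00393), a call that was lost when the trend on GC content and length was removed. Zfp100 and Zfp473, which were also looked for, were not among the Zfp entries of the results table.

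A list of Zfp regulators with known neural or general roles held Zfp365 and Zfp238, the genes with the largest falls. Of 20 tested from a list of 21, 4 (20.0%) were called higher and 4 (20.0%) lower, beside 20.5% and 15.4% of all genes, with a median log2 fold change of 0.07. The 3 with the smallest adjusted p were Zfp365, Zfp238 and Zfp292. Zfp292, a large gene tied to neurodevelopmental disorder in people, had counts of 3083, 2751, 3333 and 3282 against 2194, 1929, 1971 and 1990 (log2 fold change 0.62 ± 0.08, limma adjusted p = 0.000556). All bigenic values exceeded all nontransgenic values. The others called were Zfp462, Zfp410 and Zfp335, which were higher, and Zfp704 and Zfp536, which were lower.

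By position, 106 of the 252 entries lay in 19 genomic clusters, defined as at least 3 tested entries with neighbouring starts no more than 500 kb apart. In the clusters 42 (39.6%) were called higher and 2 lower, and their median was 0.27 on the log2 scale. Of the 146 outside, 51 (34.9%) were higher and 11 lower, with a median of 0.21. Of the 19 clusters, 18 had a median above 0 and 18 had at least 1 entry called higher. The exception in both counts was the cluster of Zfp653, Zfp809 and Zfp810 on chromosome 9, with 0 entries at an unadjusted limma p below 0.05. Called-lower entries lay in only 2 clusters, as Zfp944 and Zfp467, the latter past the filter in nontransgenic mice only. Among the entries called higher in clusters, Zfp28, Zfp59, Zfp418, Zfp472 and Zfp551 passed the filter in bigenic mice only. Zfp418 was the only entry called in its cluster. Of 36 other genes tested that lay between the first and last Zfp gene of a cluster, 12 (33.3%) were called higher and 1 (2.78%) lower. Over all genes tested these shares were 20.5% and 15.4%. The median of the 36 was 0.17 on the log2 scale. They were spread unevenly, with 11 (4 called higher) in the cluster from Zfp553 to Zfp646 and 7 (3 called higher) in that from Zfp113 to Zfp68. Several clusters held none.

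Within the 4 clusters with the most tested entries the changes were uneven. The cluster at chr17:32908181-33531586 held 11 KRAB genes, of which 6 were called higher and 0 lower (0 also at an unadjusted limma p below 0.05), with a range from -0.21 to 0.94. Its largest changes were in Zfp871 and Zfp763, the latter at 1389, 1036, 1239 and 1205 against 699, 585, 633 and 613 (log2 fold change 0.94 ± 0.10, limma adjusted p = 0.000162). The cluster at chr7:30553571-30954746 held 11 entries, all with a fold change above 0, and 6 were called higher. Its largest were Zfp940, at 797, 900, 729 and 798 against 487, 451, 517 and 641 (0.63 ± 0.12, limma adjusted p = 0.00291), and Zfp84, at 1260, 1040, 1206 and 1306 against 839, 778, 770 and 791 (0.59 ± 0.09, limma adjusted p = 0.000829). In this cluster the first 6 genes along the chromosome, from Zfp84 to Zfp27, were the ones called.

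The other large clusters moved less. That at chr17:21672503-23736454 held 11 KRAB genes, 2 of them called higher and 1 lower, and its median was 0.05. Its extremes were Zfp52, at 362, 275, 396 and 413 against 188, 217, 171 and 239 (log2 fold change 0.82 ± 0.16, limma adjusted p = 0.00327), and Zfp944. That at chr13:67139530-67830056 held 9 KRAB genes ranging from -0.20 to 0.37, and only Zfp87 was called (0.37 ± 0.09, limma adjusted p = 0.0134). Zfp58, with which Zfp87 shares exon sequence in the annotation, had the next largest change (0.35 ± 0.13, limma adjusted p = 0.0634).

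**Figure D5:**
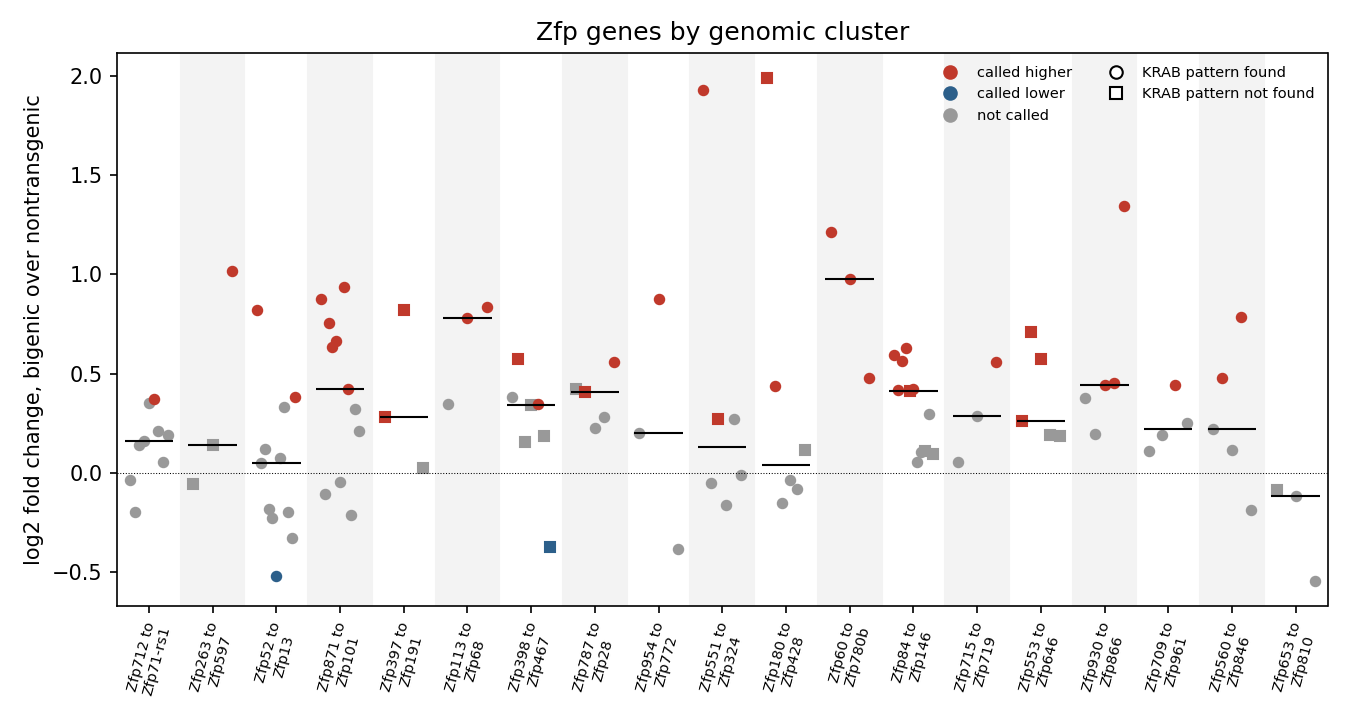
Log2 fold change of the 106 Zfp entries in 19 genomic clusters, named by their first and last gene and drawn in chromosomal order within each cluster. Circles have a KRAB pattern and squares do not, red and blue mark entries called higher and lower, and bars are cluster medians, of which 18 lie above 0.

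Neighbours of the leading risers differed from cluster to cluster. Zfp938 and Zfp873 rose together, as did Zfp60, Zfp59 and Zfp780b, and beside Zfp866 both Zfp869 entries were called higher, at 0.44 and 0.45. In the cluster of Zfp180 at chr7:24866943-25300701, Zfp112 was called higher with a log2 fold change of 0.44, and the other 4 lay between -0.15 and 0.12. In the cluster of Zfp551 at chr7:13000502-13559585, Zfp329 was called higher at 0.27 and the other 4 lay between -0.16 and 0.27. Over 103 pairs of adjacent Zfp genes the 2 fold changes had a median absolute difference of 0.24 on the log2 scale, against 0.35 over all 30628 pairs, and a Pearson r of 0.24. Such pairs share sequence and sometimes reads. Among chromosomes with at least 5 entries, chromosome 4 had the highest median, at 0.67, with 6 of 8 entries called higher, although none of the 8 lay in a cluster. The chromosome was singled out after its values were seen.

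Promoters of 197 symbols of the tested entries were in the RefSeq table (GRCm38.p6, 242 promoters of 300 bases, from 250 before to 50 after the start). Those of 3 leading risers are printed, with 2 motifs in capitals on either strand: CCGGAAG, of the ETS type, and the CCAAT box. In this build they lie at chr7:24081647-24081946 (plus strand), chr10:82241231-82241530 (minus strand) and chr16:3872325-3872624 (minus strand).
Zfp180: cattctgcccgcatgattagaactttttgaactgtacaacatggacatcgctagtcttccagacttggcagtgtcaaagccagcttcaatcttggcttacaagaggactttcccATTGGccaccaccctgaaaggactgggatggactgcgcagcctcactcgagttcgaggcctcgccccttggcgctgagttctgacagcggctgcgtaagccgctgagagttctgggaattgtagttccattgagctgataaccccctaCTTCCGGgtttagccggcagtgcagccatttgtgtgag
Zfp938: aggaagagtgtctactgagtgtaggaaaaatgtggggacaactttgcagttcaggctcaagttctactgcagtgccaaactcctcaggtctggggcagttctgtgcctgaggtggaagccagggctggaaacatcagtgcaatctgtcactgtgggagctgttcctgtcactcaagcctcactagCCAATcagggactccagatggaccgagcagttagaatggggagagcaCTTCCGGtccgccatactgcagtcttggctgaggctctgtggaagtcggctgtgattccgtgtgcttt
Zfp597: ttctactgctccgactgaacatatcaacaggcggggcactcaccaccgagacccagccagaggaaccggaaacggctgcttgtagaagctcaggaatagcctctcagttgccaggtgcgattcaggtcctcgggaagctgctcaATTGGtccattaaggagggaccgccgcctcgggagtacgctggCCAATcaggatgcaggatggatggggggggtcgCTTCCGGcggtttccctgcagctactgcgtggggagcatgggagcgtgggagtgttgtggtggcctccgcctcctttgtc

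In all, 5 motifs were searched on both strands, and these 3 promoters were chosen because they hold both of the motifs marked. CCGGAAG was found in 24.7% of 81 promoters of Zfp entries called higher, 17.4% of 149 of entries not called, 0 of 12 of entries called lower, 16.2% of 9747 promoters of genes tested and 8.86% of all 32851 promoters. CCAAT was found in 55.6% of promoters of entries called higher, 39.6% of those not called, 37.3% of promoters of genes tested and 37.4% of all. GGGCGG was found in 40.7% of those called higher and 52.3% of those not called, which is less than the 63.7% of promoters of genes tested and more than the 35.7% of all promoters. TGACGTCA, of the CRE type, was found in 2.47% of promoters of entries called higher, 3.2% of those of genes tested and 1.79% of all, and AAGATGGC, of the YY1 type, in 8.64%, 4.48% and 2.75%. Matches of CCGGAAG and AAGATGGC, and of CCAAT and TGACGTCA, can share bases. Of the 12 promoters of entries called lower, 4 held CCAAT, 7 GGGCGG, 2 TGACGTCA and 1 AAGATGGC. In 122 promoters of Zfp entries with a KRAB pattern, whatever their call, CCGGAAG was found in 24.6% and CCAAT in 50.8%. In the same 122, GGGCGG was found in 37.7%, TGACGTCA in 4.1% and AAGATGGC in 9.02%. The shares were not tested, and some genes have several overlapping promoters in the table.

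Summed counts of cell type markers did not overlap between the groups for neurons, astrocytes, microglia and choroid plexus. They overlapped for oligodendrocytes and endothelium. Over all genes tested, 20.5% were called higher and 15.4% lower. Summed counts of 9 neuronal markers were 146575 to 183407 in bigenic and 184837 to 201587 in nontransgenic mice. Of these markers 2 were called higher, Thy1 and Rbfox3, and 5 lower. The gap between the neuronal sums rested on Camk2a, the gene whose promoter drives the transactivator. Its counts were 22112, 30548, 25011 and 24809 against 44895, 45967, 49794 and 46914, and without it the sums of the groups overlapped. Of 8 astrocyte markers, 4 were lower, and of 7 microglial markers tested, 5 were lower. Their sums were 123470 to 143059 against 150668 to 162213 and 3833 to 4757 against 5051 to 5902. Summed choroid plexus markers were 13923 to 28918 against 6517 to 8161, with 3 of 4 tested called higher and Otx2, Folr1, Kcne2 and Aqp1 not among the genes tested. In every mouse Ttr and Enpp2 made up most of this sum, and Enpp2 was not called (limma adjusted p = 0.128). For oligodendrocytes 1 of 6 markers was higher, with sums of 62647 to 81074 against 61010 to 77083, and for endothelium 1 of 4 was lower, at 3000 to 3499 against 3388 to 4164. The part of these differences in the Zfp values was not tested. Mouse Tardbp, which encodes TDP-43, was lower at 5212, 4908, 5502 and 5098 against 6416, 6116, 6502 and 7116 (log2 fold change -0.33 ± 0.07, limma adjusted p = 0.00645).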

How the data were processed

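The authors sequenced poly(A)+ RNA from right cortex (4 bigenic mice, 4 nontransgenic), trimmed reads with cutadapt, mapped them to mm9 with Bowtie 0.12.7, kept uniquely mapping reads, counted them on exons with bedtools and summed exons into genes. The deposited signal is a whole-number normalized count per transcript (28662 transcripts), not a raw count and not per length. The scaling is not described in the sources used here. Column totals were 20.1 M to 22.0 M (M, 1000000), and the step between values gave an estimated 10.6 M to 31.9 M reads on genes per mouse, so that 3 reads, taken as the floor, were 1.94 to 6.2 normalized counts. The authors' table of DESeq2 results supplied symbols only. Its fold changes and p-values were not used.

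Genes that passed 10 RPM, taken against the column total, in 1 mouse or more were compared on log2(value + 1) with limma 3.58.1 (lmFit, eBayes with trend) in R 4.3.3, two-sided, with Benjamini-Hochberg adjustment over 10588 genes and a threshold of 0.05. The fold change is on the log2(value + 1) scale. The test was checked on simulated data. Columns were assigned to groups by name.

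Positions, exon lengths, GC content and coding sequences came from GENCODE vM1 on NCBIM37 (mm9). The KRAB pattern was searched in translated GENCODE coding sequences in place of RefSeq proteins. Clusters were entries with starts at most 500 kb apart. Genes named were the 8 largest rises and falls past the threshold with groups that do not overlap, the 5 highest mean counts, the 3 smallest adjusted p per list, and the 2 largest changes in each of the 4 largest clusters, plus Trim28 and Setdb1. Other genes were named after their values were seen. The members and lists were chosen with earlier results of these data known. Alternatives were other pseudocounts (10 and 0.1), filters, scalings, weights, thresholds, cluster distances and leaving out each mouse. Python 3.11.15, numpy 2.4.6 and pandas 2.3.3 were used.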

Additional observations from a re-analysis of the deposited data

Results flagged for a closer look

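Single mice that stood far from the other 3 of their group were looked for in 70 groups of 4 mice, those of the named genes. Chance alone marks about 1 in 20 groups, and 3 of the 70 were marked. Zfp239 had 318 normalized counts in 1 bigenic mouse and 357 to 361 in the others, all below the nontransgenic mice. Zfp445 had 6994 in 1 nontransgenic mouse and 6453 to 6513 in the others. Zfp385a had 531 in 1 nontransgenic mouse and 505 to 509 in the others, all below the bigenic mice.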

How the results depend on the processing

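The median log2 fold change of the Zfp entries stayed above 0 under every alternative run, between 0.210 and 0.268. No Zfp entry called in the full set changed sign under any of them. With limma array weights the calls rose from 106 to 173, with 150 higher and 23 lower, 78 higher among KRAB genes and 70 higher in clusters. At an adjusted p below 0.01 there were 58 calls, 52 higher and 6 lower, with 30 higher among KRAB genes and 25 in clusters. Requiring a change of at least 1.5-fold left 44 calls, 39 higher and 5 lower, with 23 among KRAB genes and 20 in clusters. Leaving out each mouse in turn gave 80 to 137 calls, 72 to 121 higher and 7 to 16 lower, 39 to 65 higher among KRAB genes and 31 to 58 in clusters, with medians of 0.218 to 0.244. The highest counts came without the second bigenic mouse. Of the calls of the full set, 67 higher and 6 lower held in all 8 such fits. The calls lower fell to 8 without the first nontransgenic mouse, 7 without the second and 8 without the third. A filter on the mean of the mice, chosen after seeing the data, left 83 higher and 10 lower.

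Of the comparisons of a named gene under an alternative, 555 kept direction and side of the threshold, 18 fell short of the threshold, 5 newly passed it and 5 changed sign. Zfp809 turned to 0.0225 with the trend on GC content and length removed. Leaving out each mouse in turn gave -0.184 to 0.0437 for Zfp809, -0.355 to 0.0319 for Zfp57 and -0.101 to 0.0393 for Trim28. None of these was called. The causes were not tested. No paired analysis was possible because the table's columns carry no replicate numbers of the labels. With 4 mice a group and entries near 10 RPM, small changes could not be shown, and the median standard error was 0.117 on the log2 scale.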
